A study of Homo sapiens with 8 samples.

Results

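The glycolysis and hypoxia-responsive genes are a list of 40 genes that holds the glucose transporters, the enzymes that turn glucose into lactate, their regulators, the oxygen-sensing machinery and targets of the hypoxia-inducible factors (HIF). They were followed in 8 RNAseq libraries of HEK293T, a line of human embryonic kidney cells transformed with adenoviral DNA and expressing SV40 large T antigen. The Control group was 4 cultures given vehicle, and the DZNep group was 4 cultures given 100 µM DZNep (3-deazaneplanocin A), an adenosine analog that inhibits the S-adenosylhomocysteine hydrolase AHCY; both groups were kept for 48 h and carry replicate numbers 1 to 4. Growth under low oxygen is named in none of the sources used here, the medium is DMEM in the sample labels and RPMI in the study's methods, and a transformed line is a limited model of normal kidney. The members were taken by symbol, and 39 of the 40 matched 1 of the 57500 counted genes; KDM3A-AS1 matched no identifier. Of the 39, 38 had enough reads to be tested among 19171 genes. The exception was CA9, a cell-surface carbonic anhydrase and a widely used hypoxia marker, which had 16 counts in all 8 libraries, 2 of them in Control and 14 in DZNep, where 1 library held 10. Of the CA9 exon length, 35.7% overlaps ARHGEF39 (8707 counts) on the other strand, and the strand of the reads is not given.

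Glycolysis splits glucose into pyruvate in the cytosol, and lactate dehydrogenase with the monocarboxylate transporters disposes of the pyruvate as lactate. HIF is a pair of a regulated alpha subunit (HIF1A or EPAS1) and ARNT. With oxygen present, the EGLN prolyl hydroxylases mark the alpha subunit for VHL, which has it degraded, so HIF activity is set largely at the protein level, which transcript counts do not show. HIF binds the core sequence ACGTG or GCGTG in hypoxia response elements, and glycolytic genes are among its best known targets. Transformed lines such as HEK293T use glycolysis with oxygen present. The list was examined as 21 glycolysis genes from glucose uptake to lactate export, 3 regulators (PFKFB3, PFKFB4, PDK1), 5 HIF and oxygen-sensing genes and 11 other HIF targets.

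Promoter windows of 300 bases (from 250 before to 50 after a RefSeq start, build GRCh38.p14) were available for 33 of the 40 genes, and ACGTG stood on either strand in a window of 21 of them. Of 27305 genes with such a window, 24.9% had it, and of all 35116 windows 21.4% had it. A gene was counted if any of its windows held the motif, and several members have many windows. The number of windows per gene was not matched, so the share of members is not directly comparable with that of all genes. The motif was in 12 of 19 glycolysis genes, 6 of 7 other HIF targets, 2 of 3 regulators and 1 of 4 HIF and sensing genes. Windows of 6 members that held ACGTG and passed the adjusted p below are printed 5′ to 3′ on the gene's strand. They were chosen for the motif, 2 higher with DZNep and then 4 lower. PDK1 and ERO1A also held ACGTG and passed the adjusted p, both lower, and are not printed. The same letters thus stand in members that moved in opposite directions. Of members with a window, ACGTG was in 1 of 2 higher and 2 of 3 lower at both thresholds below. PFKFB4, PFKL and ADM passed the adjusted p with GCGTG but no ACGTG in their windows. Capitals mark ACGTG or its reverse complement CACGT, which overlap in CACGTG. The other core, GCGTG, stood in 36.5% of all windows and is not marked. For HK2 and PFKP, which have several starts, the window with the most matches is shown. A match describes letters and is not a binding site.
ENO2, chr12:6914330-6914629, plus strand: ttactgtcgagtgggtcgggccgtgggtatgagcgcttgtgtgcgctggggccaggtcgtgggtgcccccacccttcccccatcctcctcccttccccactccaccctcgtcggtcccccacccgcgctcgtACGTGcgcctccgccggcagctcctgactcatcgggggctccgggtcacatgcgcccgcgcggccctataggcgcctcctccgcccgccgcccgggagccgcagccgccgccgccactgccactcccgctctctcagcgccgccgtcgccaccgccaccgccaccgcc
ALDOC, chr17:28576846-28577145, minus strand: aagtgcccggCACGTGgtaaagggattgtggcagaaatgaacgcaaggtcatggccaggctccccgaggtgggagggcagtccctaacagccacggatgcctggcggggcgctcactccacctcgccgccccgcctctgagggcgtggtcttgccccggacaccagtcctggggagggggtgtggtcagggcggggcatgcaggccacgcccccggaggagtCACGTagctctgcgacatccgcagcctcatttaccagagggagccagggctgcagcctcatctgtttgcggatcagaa
HK2, chr2:74834920-74835219, plus strand: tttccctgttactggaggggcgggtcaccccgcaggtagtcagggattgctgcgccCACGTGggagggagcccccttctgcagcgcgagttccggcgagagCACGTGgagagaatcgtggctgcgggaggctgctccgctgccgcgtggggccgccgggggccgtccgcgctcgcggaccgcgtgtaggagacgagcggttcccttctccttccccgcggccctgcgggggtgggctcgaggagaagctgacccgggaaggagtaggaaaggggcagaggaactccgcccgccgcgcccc
PFKP, chr10:3068939-3069238, plus strand: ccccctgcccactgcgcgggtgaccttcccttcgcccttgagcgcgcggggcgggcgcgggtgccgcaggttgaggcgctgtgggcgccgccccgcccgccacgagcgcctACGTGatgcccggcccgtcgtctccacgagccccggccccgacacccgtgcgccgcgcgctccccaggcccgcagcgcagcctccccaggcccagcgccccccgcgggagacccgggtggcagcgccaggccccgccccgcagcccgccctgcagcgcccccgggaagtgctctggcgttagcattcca
P4HA1, chr10:73096817-73097116, minus strand: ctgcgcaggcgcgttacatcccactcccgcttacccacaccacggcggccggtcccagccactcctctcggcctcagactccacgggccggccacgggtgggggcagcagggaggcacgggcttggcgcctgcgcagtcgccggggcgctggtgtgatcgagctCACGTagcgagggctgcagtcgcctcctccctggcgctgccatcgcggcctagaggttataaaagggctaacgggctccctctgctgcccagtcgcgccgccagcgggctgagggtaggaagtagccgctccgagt
BNIP3, chr10:131981874-131982173, minus strand: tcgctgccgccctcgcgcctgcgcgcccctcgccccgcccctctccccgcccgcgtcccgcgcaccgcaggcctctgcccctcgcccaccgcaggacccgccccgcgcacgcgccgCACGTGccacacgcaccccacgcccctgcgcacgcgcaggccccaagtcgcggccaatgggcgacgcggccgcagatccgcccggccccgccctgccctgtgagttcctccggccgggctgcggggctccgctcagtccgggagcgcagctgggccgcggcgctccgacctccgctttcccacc

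With DZNep a few named steps of glycolysis moved in both directions. The groups overlapped for most members, as they did for most genes tested. The glucose transporter SLC2A3, the neuronal enolase ENO2 and the regulator PFKFB4 were higher, and the phosphofructokinases PFKP and PFKL and the hexokinase HK2 were lower. These were the 3 higher and 3 lower of the 38 tested members (edgeR's quasi-likelihood test, Benjamini-Hochberg adjusted p under 0.05 and absolute log2 fold change over 1), where 10.6% of all genes tested were higher, 13.5% were lower and 24.2% were either. By the adjusted p alone 4 members were higher (19.1% of all genes) and 9 were lower (21.8% of all genes), and 25 were neither, where 40.8% of all genes passed in either direction. The members' median log2 fold change was -0.06, beside -0.03 for all genes tested, and the median of its absolute value was 0.28, beside 0.54. The genes tested were not matched to the members by expression level. The lowest DZNep library exceeded the highest Control library for 6 members (19.5% of all genes), and the reverse held for 8 (19.4% of all genes).

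**Figure D1:**
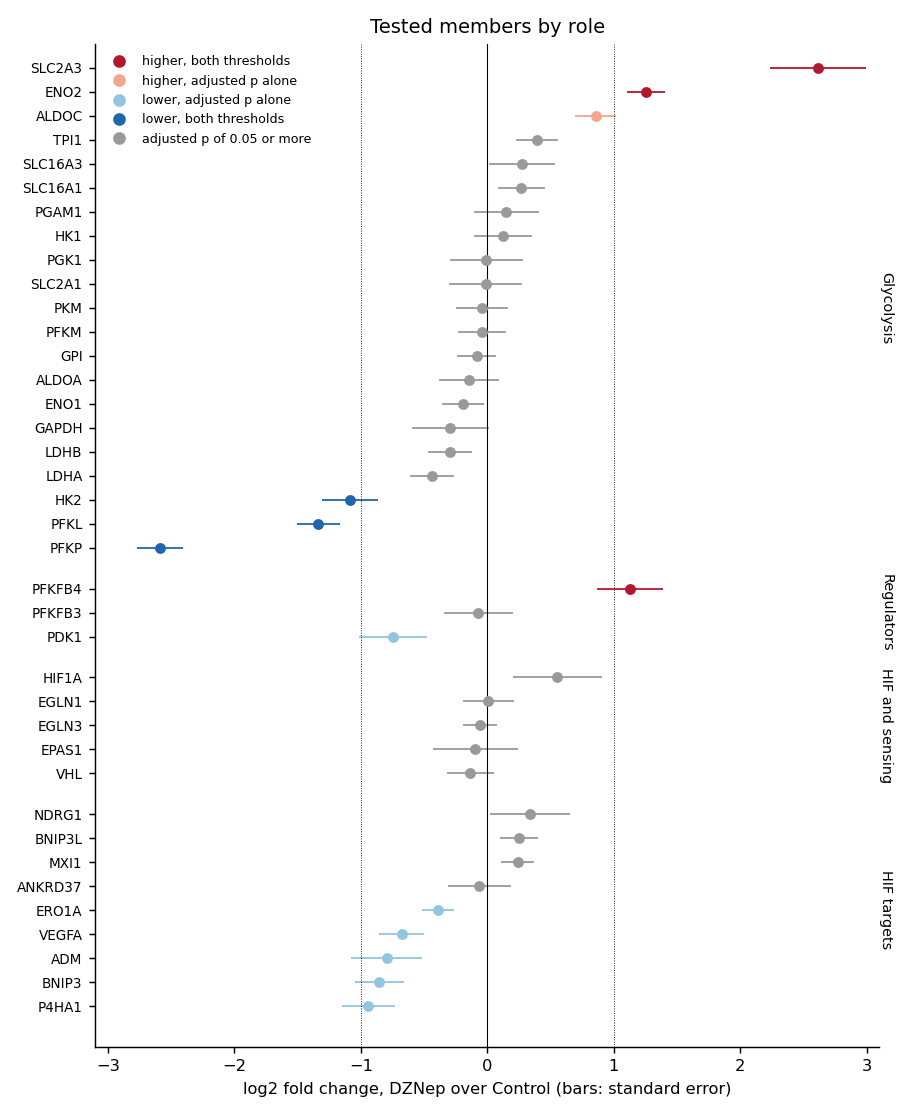
Log2 fold change of DZNep over Control (x axis) for the 38 tested members grouped by role, with bars for the standard error and dotted lines at -1 and 1. Glycolysis genes reach from -2.59 (PFKP) to 2.61 (SLC2A3), while the 9 other HIF targets lie between -0.94 and 0.34.

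Glucose enters cells through SLC2A1, the widespread transporter, and SLC2A3, a high-affinity transporter best known from neurons. SLC2A3 (ENSG00000059804, chromosome 12, 7919230 to 8019007, minus strand, GRCh38) had normalized counts of 421, 343, 540.2 and 227 in Control replicates 1 to 4. With DZNep it had 1768, 2009, 4280 and 1478. Every DZNep library was above every Control library, with replicate 3 the highest in both groups. The fitted level was 6.12-fold higher (log2 fold change 2.61 ± 0.38 SE, n = 4 and 4, edgeR adjusted p = 0.000434). SLC2A1 had 1819 ± 577 in Control and 1836 ± 673 in DZNep (SD, n = 4 each), and its log2 fold change was -0.01 (edgeR adjusted p = 0.977). Per kilobase of exon, SLC2A3 made 16.2% ± 3.29 of the 2 transporters' normalized counts in Control and 53.0% ± 4.92 in DZNep, so that in 3 of the 4 DZNep libraries it exceeded SLC2A1. SLC2A14, a near-identical copy of SLC2A3, was at 4.05 ± 2.26 and 49.5 ± 6.33 normalized counts, and reads that fit both genes could not be assigned to either.

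Hexokinase traps glucose in the cell by phosphorylation. HK2, the inducible form, was measured at 3410.0, 4391, 4095 and 2697 normalized counts in the Control libraries. The DZNep libraries had 1310, 1895, 2320 and 1470, all under the lowest Control value. The log2 fold change was -1.09 ± 0.22 (SE, edgeR adjusted p = 0.00299); HK2 (ENSG00000159399, chromosome 2, 74834127 to 74893359, plus strand) missed the fold threshold without Control replicate 2 (-0.99) or DZNep replicate 1 (-0.95). HK1, the widespread form, did not pass the test at 4708 ± 1538 and 5229 ± 877. Its share of the pair per kilobase was 52.1% ± 4.65 in Control and 72.1% ± 4.45 in DZNep, without overlap between the groups. Glucose phosphate isomerase (GPI), the next enzyme, had 19128 ± 1609 and 18379 ± 2199 normalized counts (log2 fold change -0.09).

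Phosphofructokinase catalyzes the committed step and is a tetramer of liver (PFKL), muscle (PFKM) and platelet (PFKP) subunits. PFKP (ENSG00000067057, chromosome 10, 3066333 to 3137718, plus strand) was measured at 3294, 4895, 4593 and 3995 normalized counts in Control. In DZNep it was at 726, 556, 764 and 799.9, a fitted level 6.01-fold lower (log2 fold change -2.59 ± 0.18 SE, edgeR adjusted p = 1.09e-05). The groups were far apart, and PFKP fell by more than any other tested member. PFKL (ENSG00000141959, chromosome 21, 44300051 to 44327376, plus strand) was measured at 4148, 5906, 5681 and 3955 in Control and at 1989, 1871, 2213 and 1875 in DZNep. Its log2 fold change was -1.34 ± 0.17 (SE, edgeR adjusted p = 0.00023), again with no overlap. PFKM had 3245, 4947, 4354 and 2720.2 in Control and 3794, 3898, 3893 and 3498 in DZNep, with all DZNep values inside the Control range and a log2 fold change of -0.04 (edgeR adjusted p = 0.873). The 3 subunits were near equal per kilobase in Control, at 34.1% ± 0.823 for PFKL, 32.3% ± 2.83 for PFKM and 33.6% ± 3.31 for PFKP. In DZNep PFKM made 62.4% ± 2.33, PFKL 26.6% ± 1.03 and PFKP 11.0% ± 1.72 (SD, n = 4). By counts without length the Control shares were 38.1% for PFKL, 29.3% for PFKM and 32.7% for PFKP. The near equality thus depends on the exon lengths used. PFKM shares exon bases with SENP1 on the other strand (7.12% of its exon length), and the reads were counted with no stated strand.

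PFKFB3 and PFKFB4 are bifunctional enzymes that make and degrade the allosteric activator of phosphofructokinase. PFKFB4 (ENSG00000114268, chromosome 3, 48517684 to 48562015, minus strand) had 227, 258, 338 and 214 normalized counts in Control and 484, 507, 897 and 421 in DZNep, with replicate 3 the highest in each group and no overlap. Its log2 fold change was 1.13 ± 0.26 (SE, edgeR adjusted p = 0.00632), and 0.84 without DZNep replicate 3, under the fold threshold. PFKFB3 had 1756 ± 594 and 1703 ± 492 (log2 fold change -0.07, edgeR adjusted p = 0.858). The share of PFKFB4 in the pair per kilobase was 13.4% ± 2.53 in Control and 25.2% ± 3.59 in DZNep.

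The most abundant members were enzymes of the steps from aldolase to lactate dehydrogenase. The enzymes of these steps that passed the adjusted p were minor paralogs. GAPDH, the dehydrogenase that makes NADH in glycolysis, had 47769 ± 17305 normalized counts per kilobase in Control, the highest level of the list, followed by LDHB (16273 ± 1227), the aldolase ALDOA (14672 ± 3471) and the enolase ENO1 (14569 ± 1204). The ranges of mean ± SD of the last 3 overlapped. ENO2 (ENSG00000111674, chromosome 12, 6913745 to 6923698, plus strand) was at 133 ± 11.6 on the same scale. It had 594, 499, 611 and 582 normalized counts in Control and 1314, 1207, 1687 and 1353 in DZNep, so the groups were well separated. The log2 fold change was 1.26 ± 0.15 (SE, edgeR adjusted p = 0.000169), and the ENO2 share of the 2 enolases per kilobase was 0.916% ± 0.141 in Control and 2.47% ± 0.584 in DZNep. ALDOC, the brain aldolase, had 669, 580.3, 692 and 604 normalized counts in Control and 1045, 933, 1359 and 1359 in DZNep. ALDOC passed the adjusted p but not the fold threshold (log2 fold change 0.86 ± 0.16 SE, edgeR adjusted p = 0.0022), and its share beside ALDOA was 1.71% ± 0.488 and 3.30% ± 0.694.

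The major enzymes of these steps did not pass the test. Several have processed pseudogenes that could share reads. The 65 genes named as pseudogenes of GAPDH held 0.163% as many counts as GAPDH. Only unique reads were counted, so reads that fit both could be missing from both, and this share does not measure them. ENO1 had 74418, 85275, 72067 and 72205 normalized counts in Control and 64849, 69902, 59922 and 76803 in DZNep, overlapping ranges with a log2 fold change of -0.19. The log2 fold changes of ALDOA, GAPDH, phosphoglycerate kinase PGK1, the mutase PGAM1 and pyruvate kinase PKM were -0.15, -0.29, -0.01, 0.15 and -0.04. TPI1, triose phosphate isomerase, had 25835 ± 2713 in Control and 34565 ± 5432 in DZNep with no overlap between groups (log2 fold change 0.39 ± 0.17 SE, edgeR adjusted p = 0.0903, and 0.0173 blocked on replicate number). The 21 glycolysis genes together took 1.14% to 1.33% of the counts in the Control libraries and 1.05% to 1.26% in the DZNep libraries.

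**Figure D2:**
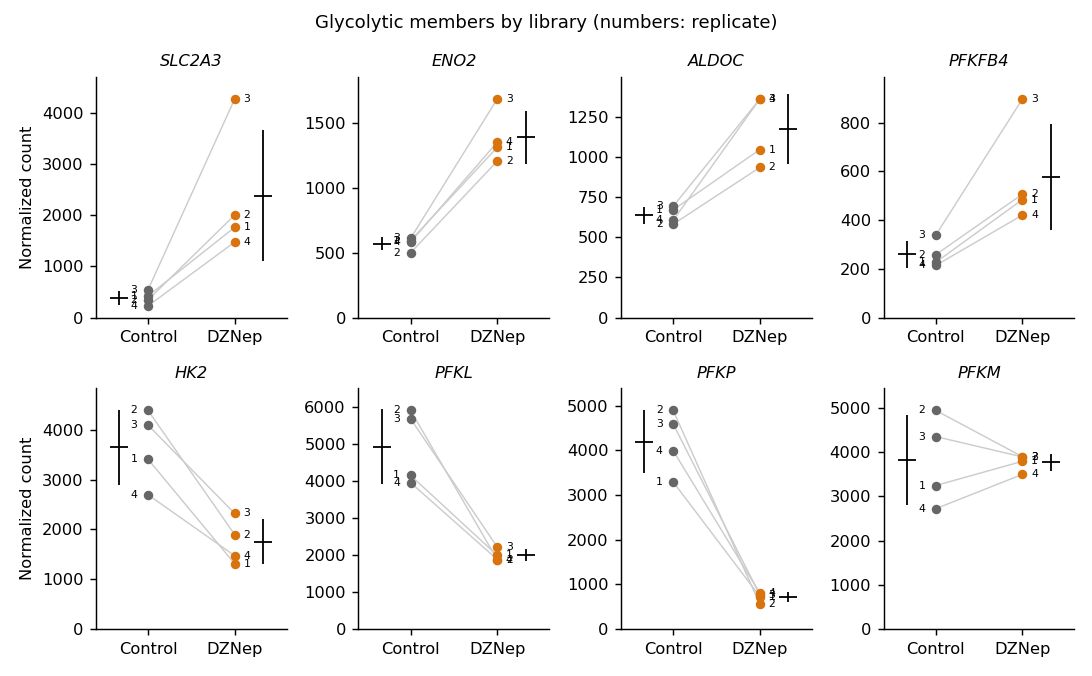
Normalized counts (y axis) of SLC2A3, ENO2, ALDOC, PFKFB4, HK2, PFKL, PFKP and PFKM in each Control and DZNep library, with replicate numbers, lines that join equal numbers, and a cross for the mean and SD (n = 4). In all panels but PFKM the groups do not overlap.

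At the pyruvate branch, lactate dehydrogenase reduces pyruvate to lactate and PDK1 blocks pyruvate dehydrogenase. LDHA, the form associated with lactate production, had 29156, 42283, 31571 and 28028 normalized counts in Control and 24530, 22833, 24716 and 26733 in DZNep. The DZNep values were all under the Control values, with a log2 fold change of -0.43 ± 0.17 (SE, edgeR adjusted p = 0.0708, and 0.0159 with the replicate block). LDHB was at -0.30 ± 0.17 (SE, edgeR adjusted p = 0.201, and 0.0395 with the block). The LDHA share of the pair per kilobase, 24.9% ± 3.45 in Control and 23.5% ± 2.20 in DZNep, overlapped between the groups. PDK1 had 1330, 1810, 2089 and 984 in Control and 837, 837, 1364 and 730 in DZNep, with DZNep replicate 3 inside the Control range. PDK1 passed the adjusted p alone (log2 fold change -0.75 ± 0.27 SE, edgeR adjusted p = 0.0464), but in only 5 of 16 alternative settings, where its adjusted p reached 0.132. Lactate leaves through SLC16A1 and SLC16A3, which had log2 fold changes of 0.27 and 0.27 and adjusted p-values in edgeR of 0.269 (0.0461 with the block) and 0.436. SLC16A3 was a minor transporter at 20.0 ± 5.67 normalized counts per kilobase in Control, beside 2113 ± 490.4 for SLC16A1, and its 1655 counts overlap exons of CSNK1D (82550 counts) on the other strand by 482 bases.

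**Figure D3:**
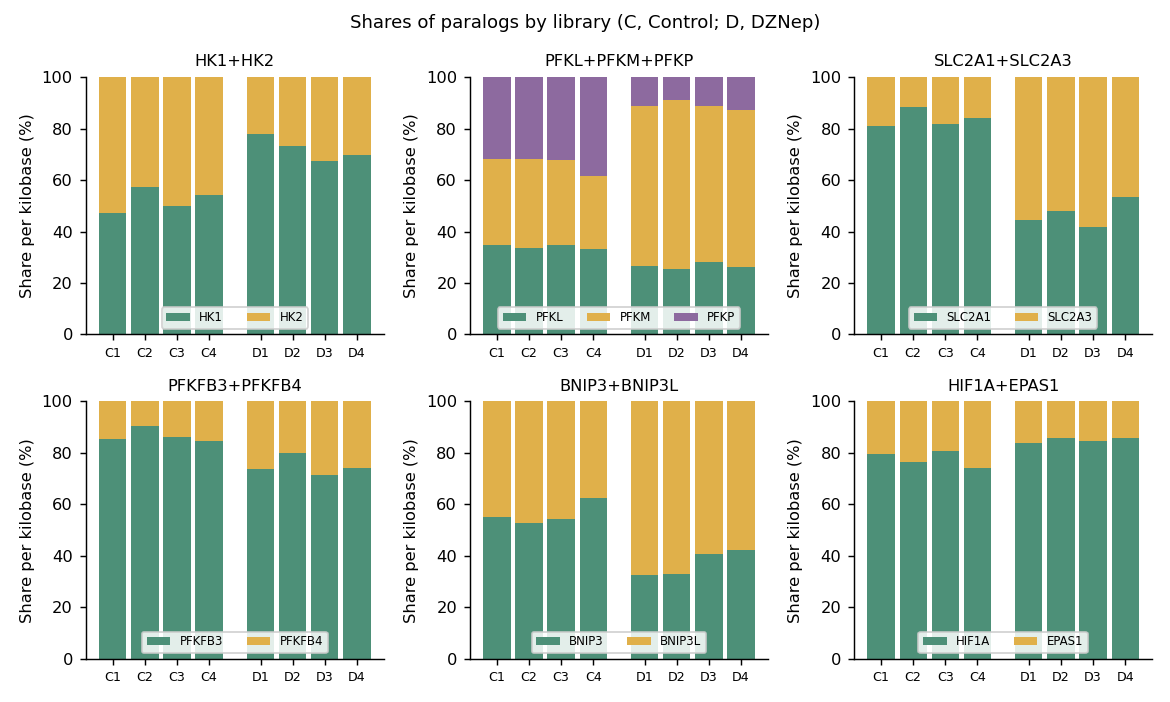
Share of each paralog (percent, y axis) in its group's normalized counts per kilobase of exon, in each Control (C1 to C4) and DZNep (D1 to D4) library. SLC2A3, PFKM, HK1, PFKFB4, BNIP3L and HIF1A take a larger share in every DZNep library than in any Control library.

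The 5 members that belong to HIF or its oxygen sensing did not pass the test in either direction, and 0 of the 5 had an unadjusted p under 0.05, where 48.8% of all genes had one. HIF1A had 2320.1, 4734, 4382 and 1552 normalized counts in Control and 4708, 6283, 5423 and 3003 in DZNep, which overlapped. Its log2 fold change was 0.55 ± 0.35 (SE, edgeR adjusted p = 0.236). Within each replicate number DZNep was the higher library, by 1.02, 0.41, 0.31 and 0.95 in log2 for numbers 1 to 4, and HIF1A passed the adjusted p in a fit blocked on replicate number (0.000877). EPAS1, the second alpha subunit, had 1290.2 ± 609.6 and 1229 ± 354 (log2 fold change -0.10). HIF1A made 77.7% ± 2.91 of the 2 subunits' normalized counts per kilobase in Control and 84.9% ± 0.953 in DZNep, without overlap. The hydroxylase EGLN1 had 3745 ± 944 and 3839 ± 505. EGLN3, itself a HIF target, had 550.4, 605, 605 and 653 in Control and 529, 567, 650.4 and 622 in DZNep, a log2 fold change of -0.06. VHL was at -0.13, with 4188 ± 894 and 3888 ± 614.

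Among the other HIF targets the members past the adjusted p were all lower, and none of the 9 tested passed the fold threshold as well. The 5 that were lower were VEGFA, BNIP3, ADM, P4HA1 and ERO1A, where 21.8% of all genes were lower by the adjusted p alone, and 0 of the 9 were higher, where 19.1% of all genes were. The median log2 fold change of the 9 was -0.39, that of the 21 glycolysis genes was -0.04 and that of all genes tested was -0.03. This difference between the groups of members is a description and was not tested.

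VEGFA, the main angiogenic growth factor, had 2695, 2400, 3485 and 2184 normalized counts in Control and 1667, 1484, 2057 and 1648 in DZNep, with no overlap (log2 fold change -0.68 ± 0.18 SE, edgeR adjusted p = 0.0125). With library sizes alone as the scaling its adjusted p was 0.0544. P4HA1, a collagen prolyl hydroxylase subunit, had 1522, 1740.0, 2020.0 and 1177 in Control and 740, 803, 1163 and 723 in DZNep, with the highest DZNep value just under the lowest Control value. Its log2 fold change was -0.94 ± 0.21 (SE, edgeR adjusted p = 0.00563). BNIP3, a mitophagy receptor, had 3003, 2429, 2910 and 3148 in Control and 1300, 1276, 2187 and 1725 in DZNep, a log2 fold change of -0.85 ± 0.20 (SE, edgeR adjusted p = 0.00595). DZNep replicate 3 was the highest of its group for these 3 genes. Without that library P4HA1 (-1.12) and BNIP3 (-1.03) passed the fold threshold, and P4HA1 also did without Control replicate 4 (-1.07).

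ERO1A, an oxidase that forms disulfides in the endoplasmic reticulum, had 4648, 4565, 4374 and 4836 in Control and 3550, 3773, 3785 and 3242 in DZNep. The groups did not overlap, and the difference was small (log2 fold change -0.39 ± 0.13 SE, edgeR adjusted p = 0.0318). ADM, the vasodilator peptide adrenomedullin, had 455, 258, 291 and 545 in Control and 188, 188, 212 and 323 in DZNep, which overlapped (log2 fold change -0.79 ± 0.28 SE, edgeR adjusted p = 0.043). ERO1A kept its adjusted p under 0.05 in 5 of 16 alternative settings and ADM in 8 of 16, with highest values of 0.186 and 0.125.

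BNIP3L, the paralog of BNIP3, had 2295 ± 262 in Control and 2777 ± 367 in DZNep (log2 fold change 0.25, edgeR adjusted p = 0.213). Named pseudogenes of BNIP3 held 1.09% as many counts as the gene, which likewise does not measure reads that fit both. BNIP3 made 56.2% ± 4.25 of the pair's normalized counts per kilobase in Control and 37.1% ± 5.01 in DZNep. The MYC antagonist MXI1, at 2202 ± 179.9 and 2647 ± 198, had no overlap between groups but did not pass (log2 fold change 0.24, edgeR adjusted p = 0.169). NDRG1, a stress-responsive gene, was at 0.34 (edgeR adjusted p = 0.427, and 0.0216 with the replicate block). ANKRD37 was low, at 75.3 ± 17.2 and 73.6 ± 12.7 normalized counts, and 40.4% of its exon length overlaps UFSP2 on the other strand.

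**Figure D4:**
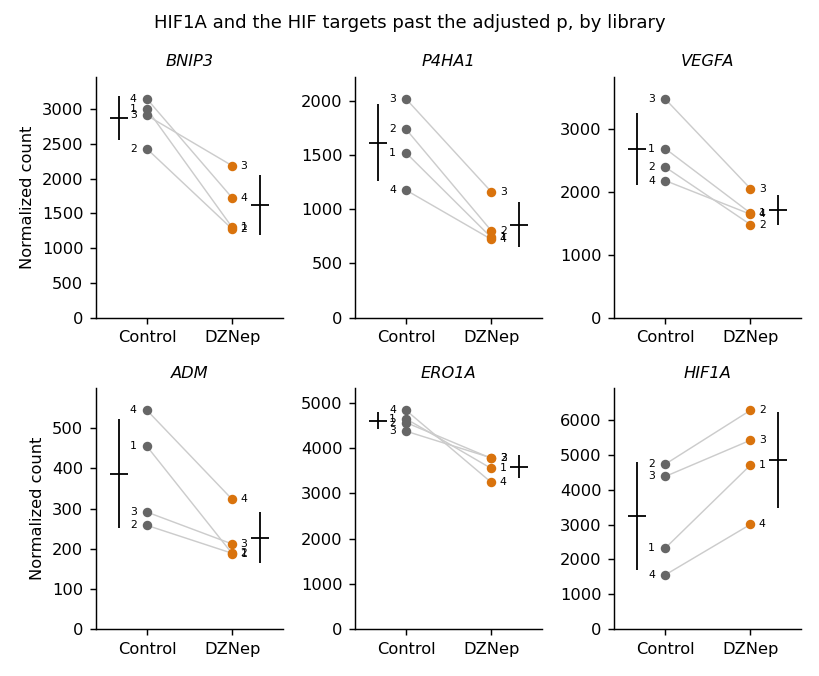
Normalized counts (y axis) of BNIP3, P4HA1, VEGFA, ADM, ERO1A and HIF1A in each Control and DZNep library, with replicate numbers, lines that join equal numbers, and a cross for the mean and SD (n = 4). All 4 lines fall in the first 5 panels, and all 4 rise for HIF1A while its groups overlap.

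Many members also differed between the replicate numbers that the groups share. Treating libraries of equal number as pairs is an assumption, which the correlations between libraries given below do not establish. In an additive fit of replicate number and treatment, 17 of the 38 members differed between numbers (edgeR's F test of 3 coefficients, adjusted p under 0.05), where 29% of all genes did. They were 7 of the 21 glycolysis genes, the 3 regulators, 4 of the 5 HIF and sensing genes and 3 of the 9 other HIF targets. The smallest adjusted p-values in edgeR's test were those of HIF1A (0.000743), SLC2A3 (0.000808), PFKFB3 (0.00131), NDRG1 (0.00142) and GAPDH (0.00144). The largest were those of ERO1A (0.992), LDHA (0.758), PFKP (0.715), ENO1 (0.68) and EGLN3 (0.657).

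PFKFB3 had 1338, 2403, 2108 and 1173 normalized counts in Control replicates 1 to 4 and 1362, 2003, 2233 and 1213 in DZNep, with numbers 2 and 3 high in both groups. NDRG1 was also high in numbers 2 and 3, with 2053, 5122, 4401 and 2453 in Control and 3796, 5383, 5900 and 2990 in DZNep. GAPDH ran the other way with 137039, 80928, 78310 and 161540 in Control and 95610, 72292, 76748 and 136672 in DZNep. HIF1A, PFKFB3 and NDRG1 were thus high where GAPDH was low. Mitochondrial transcripts split the numbers as GAPDH did, with 7.76%, 3.02%, 3.16% and 13.7% of the counts in Control and 7.04%, 4.25%, 4.44% and 10.1% in DZNep, and their part in these differences was not tested.

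**Figure D5:**
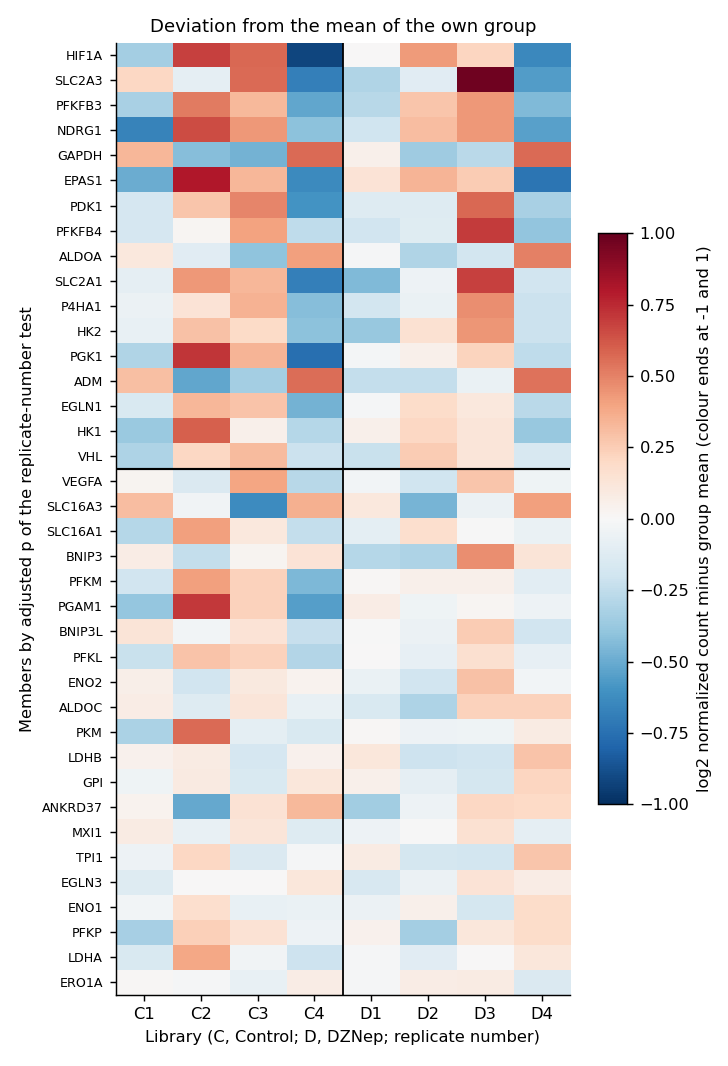
Colour gives the log2 normalized count of each tested member (rows) minus the mean of its own group, in each Control (C1 to C4) and DZNep (D1 to D4) library; rows are ordered by the adjusted p of the replicate-number test, and the 17 above the horizontal line passed it. HIF1A, PFKFB3 and NDRG1 are red in numbers 2 and 3 of both groups, where GAPDH is blue.

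Of the 38 members, 10 were higher in DZNep within every replicate number (33.8% of all genes) and 13 were lower within every number (31.6% of all genes). Blocking on replicate number, the members past both thresholds stayed at 3 higher and 3 lower (11.7% and 14.3% of all genes in that fit), while those past the adjusted p alone went from 4 to 8 higher, with TPI1, SLC16A1, HIF1A and NDRG1 added, and from 9 to 11 lower, with LDHA and LDHB added. Over all genes the shares past the adjusted p alone in that fit were 28.8% higher and 30.2% lower, up from 19.1% and 21.8%.

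The libraries held between 25043058 and 44902779 counts, with Control replicate 1 the shallowest. AHCY, whose protein DZNep inhibits, had a log2 fold change of -0.30 (edgeR adjusted p = 0.142, and 0.0443 with the replicate block), which does not check the labels. Every DZNep library was under every Control library for AHCY. All 10 markers of HEK293T cells were at 10 or more normalized counts per kilobase in every library. Of 11 markers of other cell types 5 were under 10 in every library, with UMOD at 0, and COL1A1 was the highest at 249.6 to 519.9. Their summed level ranged from 302 to 572 in Control and from 323 to 607 in DZNep, most of it COL1A1, and without COL1A1 from 52.7 to 87.6 and from 60.3 to 114.9. Of the 7 tested, VWF was called higher, from a mean of 2.81 to 102.9 normalized counts, and CD3E, not tested, went from 0 to 20.3. Of the HEK293T markers KRT8 was called higher, from 361 to 2001. The part of these in the members' values was not tested. In bulk samples, fewer cells of a kind and less RNA per cell cannot be told apart.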

How the data were processed

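Per the study's methods and the labels, the authors processed paired RNA reads of HEK293T cells with Trimmomatic 0.36 for trimming, STAR 2.5.2b for alignment to GRCh38 and featureCounts (Subread 1.5.2) for unique reads per gene. The annotation release, library type and strand are not given in the sources used here. The authors deposited raw counts of 57500 genes and a signal of normalized counts of 19118 genes, which are the counts divided by 1 size factor per library.

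Symbols and exon lengths came from GENCODE, which named 56410 of the identifiers, and promoters came from RefSeq. Levels per kilobase are normalized counts over the joined exon length. That length takes in all annotated exons of a gene, and comparisons of levels between genes depend on this choice. The raw counts were fitted with edgeR 4.0.16 (R 4.3.3; TMM, filterByExpr, quasi-likelihood test, all 8 libraries, treatment alone), with Benjamini-Hochberg adjustment over all 19171 genes tested, and called where the adjusted p was under 0.05 and the absolute log2 fold change exceeded 1. Replicates are biological replicates per the study, and pairs of libraries of a group differed by more than sampling noise (chi-square per degree of freedom of at least 23.9). Deviations from the group means correlated between Control and DZNep libraries of equal number (0.135, 0.492, 0.428 and 0.675 for numbers 1 to 4), and on that ground equal numbers were treated as pairs. Control replicate 1 correlated more with DZNep replicate 4 (0.534). Control replicate 2 and DZNep replicate 3 correlated at 0.397, and Control replicate 3 and DZNep replicate 2 at 0.342. Pairing by number is thus an assumption that these values do not establish. The blocked fits and the ratios within a replicate number rest on it. On simulated counts, 200 genes were changed by a log2 fold of 2. The treatment test recovered 198 of 200 with 6 false calls among 18153 tested. The replicate-number test recovered 181 of 200 with 10 false calls among 18171. Recovery of smaller differences was not tested, and the members' median absolute log2 fold change was 0.28.

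The members and lists were chosen with earlier results of these data known. Every member is named, with its value in every library where it passed both thresholds or had one of the 5 smallest or largest p-values of the replicate-number test. Other members shown by library and KDM3A were chosen after their values were seen. From each list of other genes, up to 3 called genes per direction with the largest absolute log2 fold change are named. The result of 1 such gene is not reported here. The alternatives were other scalings and filters, the replicate block, leaving out each library, DESeq2 1.42.0, limma 3.58.1 on log2(normalized count + 1) and log2(normalized count + 10), and a test against the fold threshold. Gene lists were described by counts and medians. The proteomics data of the study were not analysed here.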

Additional observations from a re-analysis of the deposited data

Results flagged for a closer look

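PDK1, the kinase that blocks pyruvate dehydrogenase, had 1364 normalized counts in DZNep replicate 3, while the other DZNep libraries lay between 730 and 837. The gap to the nearest library was 0.831 of the group's range, above the 95% limit of Dixon's test for 4 samples. This was 1 of 76 groups of 4 libraries examined over the members, and chance flags about 1 in 20 groups. DZNep replicate 3 was also the highest DZNep library for SLC2A3, PFKFB4, P4HA1, BNIP3 and VEGFA. Without it the log2 fold change of PDK1 was -0.98.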

How the results depend on the processing

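Over the 38 tested members and 16 alternatives, 553 of 608 log2 fold changes kept their direction and their call at both thresholds, 49 turned direction, 3 lost and 3 gained the call. The adjusted p alone changed its side of 0.05 in 40 of the 608, in 10 members. The 6 called members, ALDOC, BNIP3 and P4HA1 kept an adjusted p under 0.05 in 16 of 16. Leaving out 1 library gave 2 to 3 members higher and 2 to 5 lower at both thresholds, 4 higher and 6 to 8 lower by the adjusted p alone, and 1936 to 2383 genes higher and 2322 to 2993 lower over all genes. Without DZNep replicate 3, 2 members were higher (PFKFB4 at 0.84) and 5 were lower. With the test against the fold threshold 1 member was higher and 1 was lower, and 942 genes were higher and 1066 were lower over all genes. With at least 10 reads in every library 1141 genes were higher. With the replicate number as a block 8 members were higher by the adjusted p alone and 11 were lower, and the block changed no other call of the members. The number of members that differed between replicate numbers was 17 to 19.

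Direction turned only for members near 0. SLC2A1 was at 0.0098 with median-ratio size factors, 0.0554 when library sizes alone set the scale, 0.0218 with at least 10 reads, 0.0102 with DESeq2, and 0.0114 and 0.0113 with limma at pseudocounts of 1 and 10. PGK1 was at 0.0156, 0.0463, 0.0291, 0.0133, 0.1168 and 0.1167 in the same settings and 0.0904 with the block. Scaling by library sizes alone put PFKM at 0.0156, PKM at 0.0242, EGLN3 at 0.0284 and ANKRD37 at 0.0302. The pair of limma fits put PFKM at 0.0207 and 0.0205 and PKM at 0.0265 and 0.0264, and the block put PKM at 0.0008. Without 1 library, log2 fold changes ran from -0.29 to 0.14 for SLC2A1, -0.0020 to 0.36 for HK1, -0.18 to 0.10 for PFKM, -0.22 to 0.26 for PGK1, -0.018 to 0.43 for PGAM1, -0.15 to 0.18 for PKM, -0.23 to 0.11 for PFKFB3, -0.29 to 0.22 for EPAS1, -0.13 to 0.12 for EGLN1, -0.11 to 0.015 for EGLN3 and -0.21 to 0.064 for ANKRD37. The causes were not tested. A gene at 0 in the shallowest library could hold up to 1.2e-05% of its counts (3 counts, counting error only), so CA9 was near the limit of this depth.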

Other observations

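Genes of the same and neighbouring pathways that are not in the list also differed in both directions. Of 40 other genes of glycolysis and pyruvate use 31 were tested, and 4 were higher and 4 were lower at both thresholds (10.6% and 13.5% of all genes), with a median log2 fold change of 0.06. PDK4, a kinase of pyruvate dehydrogenase like PDK1, had 182 ± 49.3 normalized counts in Control and 656 ± 129.7 in DZNep (SD, n = 4 each; log2 fold change 1.82 ± 0.23 SE, edgeR adjusted p = 0.000234), and so moved opposite to PDK1. SLC2A14 (3.58) was also higher. The lower genes included PFKFB1 (-1.81, 25.02 ± 6.07 to 7.33 ± 5.59), the testis lactate dehydrogenase LDHC (-1.53, 274 ± 65.8 to 96.5 ± 25.7) and phosphoglucomutase PGM1 (-1.39, 2614 ± 1101 to 1013 ± 289).

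The pentose phosphate pathway, which branches off after hexokinase and makes NADPH and ribose, had 9 of 9 genes tested, of which 1 was higher and 2 were lower (10.6% and 13.5% of all genes). PGLS, the lactonase of its second step, had 3907 ± 2184 normalized counts in Control and 155 ± 81.8 in DZNep (log2 fold change -4.69 ± 0.52 SE, edgeR adjusted p = 0.000104). H6PD, the endoplasmic reticulum enzyme for the first steps, went from 1846 ± 173 to 293 ± 33.3 (-2.68 ± 0.15 SE, edgeR adjusted p = 3.94e-06). TKTL1, a transketolase-like gene, went from 38.6 ± 4.71 to 389 ± 52.3 (3.30 ± 0.19 SE, edgeR adjusted p = 4.62e-06).

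Of 15 other HIF and oxygen-sensing genes 14 were tested, with 3 higher and 1 lower (10.6% and 13.5% of all genes). CITED2, which competes with HIF for the coactivators CREBBP and EP300, had 1375, 1970.4, 1910 and 908 normalized counts in Control and 14351, 15111, 16390 and 9249 in DZNep (log2 fold change 3.13 ± 0.29 SE, edgeR adjusted p = 3.77e-05). The hydroxylase EGLN2 (1.26) and CREBBP (1.25) were higher and ARNT2, a partner of the alpha subunits, was lower (-1.84). Of 48 other HIF targets 46 were tested, with 5 higher, among them PPP1R3C (1.70), GPRC5A (1.33) and RLF (1.12), and 5 lower (against the same shares of all genes), among them INHBB (-1.66), the demethylase KDM4B (-1.65) and ZNF395 (-1.17). By the adjusted p alone 10 of the 46 were higher and 8 were lower (19.1% and 21.8% of all genes), beside 0 and 5 of the 9 tested members that are HIF targets. The median log2 fold change of the 46 was 0.12, beside -0.39 for those 9 members. KDM3A, the sense gene of the unmatched KDM3A-AS1 and a HIF target, was at 0.90 ± 0.21 (SE, edgeR adjusted p = 0.00706).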
